A study of Mus musculus with 8 samples.

Results

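Elane, Mmp8 and Csf3 are 3 genes of the neutrophil, the short-lived white blood cell that leaves the bone marrow loaded with granules of proteases. Elane encodes neutrophil elastase, a serine protease of the primary granules. Mmp8 encodes neutrophil collagenase, a matrix metalloproteinase of the secondary granules that cleaves fibrillar collagen. Csf3 encodes granulocyte colony-stimulating factor, the secreted cytokine that drives the making and release of neutrophils through its receptor on their precursors. The mRNAs of granule proteins are made mainly while granulocytes mature in the marrow, and Csf3 is made by endothelial cells, fibroblasts and macrophages after inflammatory signals.

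The measurements came from the liver of Abcb4-/- males, 17 weeks old and of the Balb/cByJ strain. Abcb4 encodes the transporter that carries phosphatidylcholine from the hepatocyte into bile, and its loss in mice leaves bile that injures bile ducts. For 4 such mutants, liver RNA went onto cDNA arrays read in 2 colours, each mouse on 2 arrays with exchanged dyes, which makes 8 samples. The only control was a pool of liver RNA from male wild-type mice of the same strain and age, made from 4 animals by the sample labels and from 6 by the labelling protocol. The labels do not say how the Abcb4 allele was made. For mouse 1 the deposited columns were the same hybridisation with its sign turned, so mice 2 to 4 and their 6 arrays were used.

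Of 20794 probes on the array, 12771 had a gene symbol and named 9030 genes, and 3 of these probes belonged to the 3 genes described here: probe 4905 for Elane, probe 2885 for Mmp8 and probe 20284 for Csf3. Each gene had a single probe, and each probe had a value on all arrays. The 3 genes were chosen from their mean ratios in mice 2 to 4 in earlier work on the same values, Csf3 because it passed the test over all features and Elane and Mmp8 because they led a list of neutrophil markers. Their mean ratios are therefore given as a description with no test.

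Values are log2 ratios, and a positive ratio is likely higher in the mutant than in the pool. The direction was not stated by the depositors. It was read from the labels, which make the mutant channel 1 of every sample, and from the sign that placeholders take in each orientation, which also turns between the columns of mouse 1. All features together had a median ratio of 0.023 over mice 2 to 4, and 59.5% of 16796 features lay above 0. The Cy3 array of mouse 3 (mutant labelled with Cy3) had the widest spread, with an SD of 0.561 over probes against 0.244 to 0.331 on the other hybridisations. Intensities were not used here, so the level of each mRNA in the liver, and whether any marker was at background, is unknown. Where a gene had several probes, their mean ratios correlated at -0.0021 across 4847 pairs, which are not independent replicates. Each value thus belongs to its probe, and to the gene only as far as the platform annotation holds.

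The stretches before the start of Elane and Mmp8 are shown because both genes are transcribed in maturing granulocytes, where PU.1 and C/EBP factors act. The RefSeq promoter table (GRCm38.p6) had an entry for 2 of the 3 genes. The 250 bases before the start are printed 5′ to 3′, with matches to the core motifs GAGGAA (PU.1) and TTNNGNAA (C/EBP) in capitals, searched on both strands.
Elane, chr10:79886062-79886311, plus strand: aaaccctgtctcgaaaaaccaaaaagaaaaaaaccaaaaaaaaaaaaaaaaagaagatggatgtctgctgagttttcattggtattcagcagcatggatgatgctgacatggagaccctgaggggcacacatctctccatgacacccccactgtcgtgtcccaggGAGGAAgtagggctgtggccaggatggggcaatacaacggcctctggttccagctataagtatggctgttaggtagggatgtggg
Mmp8, chr9:7558179-7558428, plus strand: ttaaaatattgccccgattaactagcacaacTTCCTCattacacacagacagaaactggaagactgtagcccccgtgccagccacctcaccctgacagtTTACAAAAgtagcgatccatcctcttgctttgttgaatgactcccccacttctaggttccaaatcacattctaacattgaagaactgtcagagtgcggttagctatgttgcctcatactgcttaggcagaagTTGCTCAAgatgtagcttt
In the Elane window there was 1 match to the PU.1 core, 85 bases before the start, and 0 to the C/EBP core. The Mmp8 window held 1 match to the PU.1 core, 219 bases before the start, and 2 to the C/EBP core, 151 and 19 bases before it. Over 32851 promoter windows of the same length, 23.3% held the PU.1 core and 36.8% the C/EBP core. The MYB core AACNG, not capitalised here, occurred 2 times in the Elane window and 4 times in that of Mmp8, and 74.2% of all windows held it. A match describes these letters and no more.

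Csf3 had the highest ratios of the 3 genes. On the arrays of mouse 2 its log2 ratio was 0.98 with the mutant in Cy5 and 1.12 with it in Cy3. Mouse 3 gave 0.74 and 0.42, and mouse 4 gave 0.91 and 1.02, in the same order of dyes. All 6 values lay above 0, and those of mouse 3 were the lowest in either orientation. The mean was 0.86 ± 0.25 (SD, n = 3 mice), a 1.82-fold difference on the linear scale. On 5 of the 6 arrays under 1% of features were at or above Csf3, and on the Cy3 array of mouse 3 the share was 10.8%. By its mean Csf3 stood at place 19 of all features.

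Elane was above 0 in mice 2 and 4 on both of their arrays and in mouse 3 on the Cy5 array. Mouse 2 gave 0.93 with the mutant in Cy5 and 0.83 with it in Cy3, and mouse 4 gave 0.73 and 0.46. Mouse 3 gave 0.54 in Cy5 and -0.010 in Cy3, so the arrays of that mouse did not share a sign. The mean was 0.58 ± 0.31 (SD, n = 3), a 1.49-fold difference, with 5 of 6 arrays above 0. The value of -0.010 matched the ratio of whole numbers up to 10, within 0.0011 on the log2 scale, once the array's constant was removed, as did 6.97% of the values on that array. Without the Cy3 array of mouse 3 the mean of Elane was 0.67.

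Mmp8 had the smallest ratios, all above 0. The highest was 0.76, in mouse 2 with the mutant in Cy5, and the same mouse gave 0.11 in Cy3. Mouse 3 gave 0.38 and 0.20, and mouse 4 gave 0.24 and 0.23. The mean was 0.32 ± 0.10 (SD, n = 3), a 1.25-fold difference. The array with 0.76 stood above the other 5, which ran from 0.11 to 0.38. On 4 of the 6 arrays at least 10% of features were at or above Mmp8, so its place among all features was less far out than that of Csf3 or Elane.

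**Figure D1:**
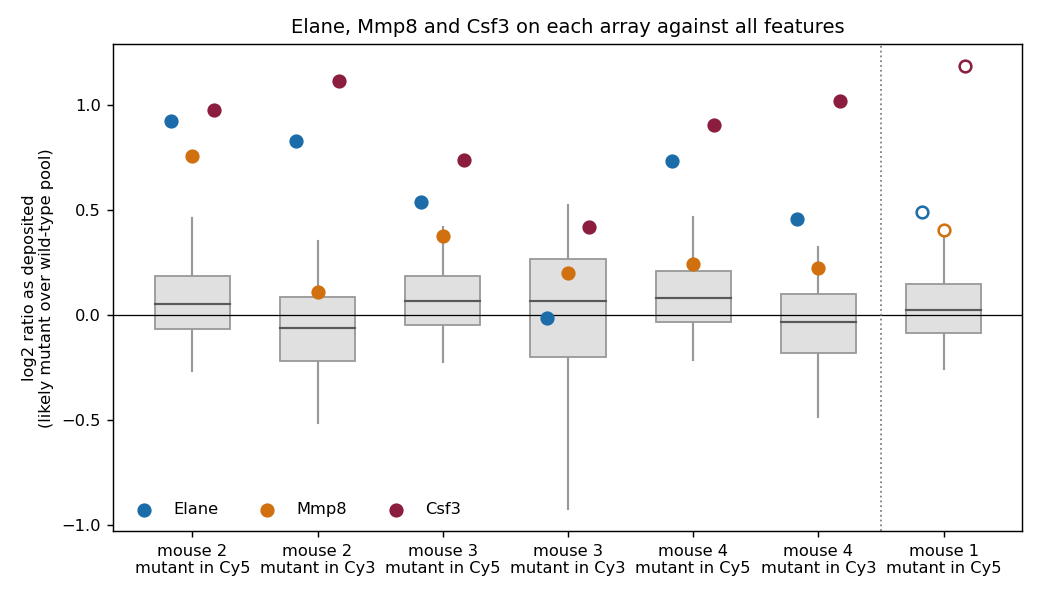
Log2 ratios of Elane, Mmp8 and Csf3 on each array (points), over all features of that array (box, 25th to 75th percentile; line, median; whiskers, 5th to 95th percentile). Filled points are mice 2 to 4, and open points are the single hybridisation of mouse 1, which the means leave out. Csf3 is the highest of the 3 on all arrays shown, and Elane falls to -0.010 on the Cy3 array of mouse 3.

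Between the genes, the order of the ratios was Csf3, Elane, Mmp8 on 5 of the 6 arrays. On the Cy3 array of mouse 3, Mmp8 was above Elane. Csf3 exceeded Elane by 0.28 ± 0.10 (SD, n = 3) on the log2 scale, on all 6 arrays, with gaps from 0.051 to 0.57. Elane exceeded Mmp8 by 0.26 ± 0.25, in 2 of 3 mice, so the gap between these neighbours in the order was about as large as its spread over mice. The order is one of ratios, not of mRNA levels. Mouse 2 had the highest mean of all 3 genes, at 1.05 for Csf3, 0.88 for Elane and 0.43 for Mmp8. For Csf3 and Elane mouse 3 was lowest, at 0.58 and 0.26, and for Mmp8 mouse 4 was lowest, at 0.24.

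Across all features 56 of 16796 passed limma's test at an adjusted p under 0.05, which is 0.333%. Of these, 45 had positive ratios (0.268%) and 11 negative ones (0.0655%). Csf3 was 1 of the 45, and Elane and Mmp8 were not among the 56. Csf3 was no longer among the features that passed after median centring with or without scaling, in the Cy3 arrays alone, in an unmoderated test, without mouse 2 (limma adjusted p = 0.192), or without mouse 4 (limma adjusted p = 0.131). Ratios above 0 on all 6 arrays, as for Csf3 and Mmp8, were found for 1024 features, or 6.10%. Since these ratios chose the genes, nothing is read from either count.

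The hybridisation of mouse 1 did not enter that choice. In its column with the mutant in Cy5, Csf3 stood at 1.19, Elane at 0.49 and Mmp8 at 0.41, against a median of 0.024 over 16917 features. On that array 0.491% of features were at or above Csf3, 3.48% at or above Elane and 5.67% at or above Mmp8. All 3 genes were positive, in the order found on most arrays of the other mice. The column is 1 hybridisation in 1 dye orientation against the same pool, so there is no replicate check, and neither a dye effect nor a deviation of the pool is cancelled in it. The value of Mmp8 there matched a ratio of whole numbers up to 10 within the same 0.0011, as did 7.81% of the values in that column.

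The difference between dye orientations did not choose the genes, but it is not free of the mean ratio where the orientations differ in spread, as they did here. It is given for the 3 genes as a description. Csf3 had near equal means in both, with 0.87 ± 0.12 (SD, n = 3 arrays) with the mutant in Cy5 and 0.85 ± 0.38 in Cy3. The difference within mice was 0.021 ± 0.26 (SD, n = 3). Elane had 0.73 ± 0.19 in Cy5 and 0.43 ± 0.42 in Cy3, a difference of 0.31 ± 0.23 that was positive in all 3 mice. Mmp8 had 0.46 ± 0.27 in Cy5 and 0.18 ± 0.061 in Cy3, a mean difference of 0.28 ± 0.33. By mouse its difference was 0.65 in mouse 2, 0.18 in mouse 3 and 0.018 in mouse 4. All features had a median difference of 0.080, and 26 of them passed limma's test of it, or 0.155%. Elane, Mmp8 and Csf3 were not among the 26, which with 3 mice does not show that their orientations were alike. If the columns with the mutant in Cy3 are turned, the means become 0.011 for Csf3, 0.15 for Elane and 0.14 for Mmp8, so the values above rest on the columns as deposited.

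**Figure D2:**
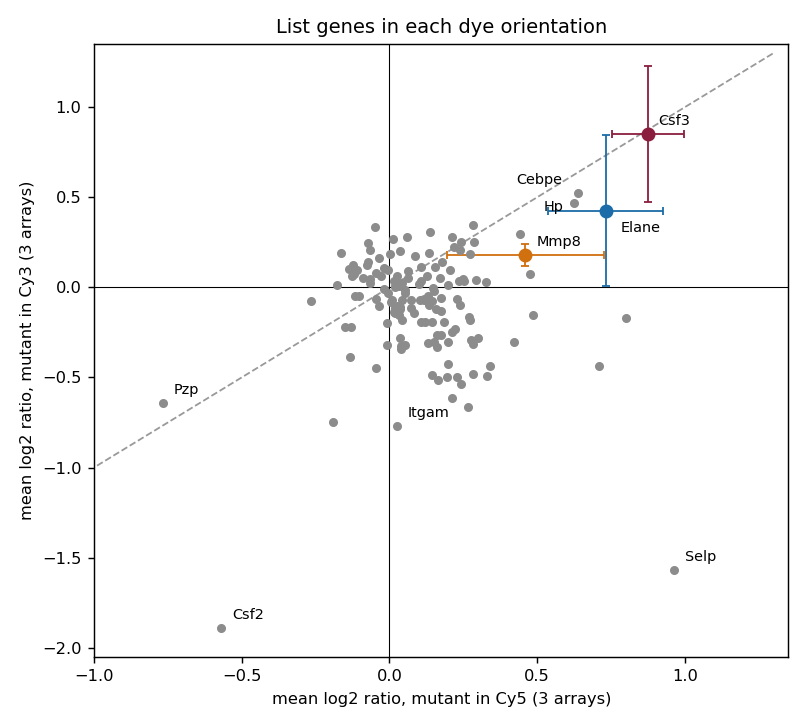
Mean log2 ratio of each tested list gene over the 3 arrays with the mutant in Cy5 (horizontal axis) and the 3 with it in Cy3 (vertical axis); bars are SD over arrays for the 3 genes, and the dashed line marks equal values. Csf3 lies on the line at 0.87 and 0.85, Elane and Mmp8 lie below it with both means above 0, and Selp and Csf2 have Cy3 means of -1.57 and -1.89.

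Cytokines that act on blood cell precursors or induce Csf3 were counted next. For this and the lists below, the shares over all 16796 features were 0.333% that passed and 59.5% above 0. A count of 0 passed in a short list is near that share, so it is no result about the list. Of 7 other ligands tested, 0 passed with a higher and 1 with a lower ratio, and 4 were above 0, with a median of 0.0082. The gene that passed was Csf2, which encodes granulocyte-macrophage colony-stimulating factor, at -1.23 ± 0.48 (SD, n = 3; limma adjusted p = 0.0387). Its arrays did not share a sign. With the mutant in Cy5, Csf2 stood at -2.58, 0.61 and 0.26 in mice 2, 3 and 4, and in Cy3 at -0.97, -2.73 and -1.97. Csf2 did not pass without any 1 of the mice, after median centring, or in either orientation alone, and without the Cy3 array of mouse 3 the mean was -0.67 (limma adjusted p = 0.659). Il1b and Tnf, inflammatory cytokines that can induce Csf3, had 0.28 ± 0.36 (limma adjusted p = 0.551) and 0.18 ± 0.19 (limma adjusted p = 0.577). Il6 stood at -0.17 ± 0.29 and Kitl, the stem cell factor, at -0.048 ± 0.069.

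No probe was named Csf3r, the receptor of granulocyte colony-stimulating factor. Of 8 other receptors of this group 0 passed in either direction and 5 were above 0, with a median of 0.040. Il17ra, the receptor chain for interleukin 17, had 0.16 ± 0.026 with all 6 arrays above 0 (limma adjusted p = 0.519), and Il5ra had -0.13 ± 0.10 (limma adjusted p = 0.636). Among 20 genes of signalling below the receptor and of granulocyte transcription, 0 passed in either direction and 12 were above 0, with a median of 0.014. Cebpe, which encodes a transcription factor needed for the last steps of granulocyte maturation, had the highest mean of the 20. Its ratios were 1.02 and 0.75 in mouse 2, 0.42 and 0.30 in mouse 3, and 0.47 and 0.52 in mouse 4, in the order Cy5 and Cy3. The mean was 0.58 ± 0.27 (SD, n = 3; limma adjusted p = 0.105), and mouse 1 had 0.91. Cebpe passed in 1 of 15 alternatives, when the 6 arrays were fitted in place of mouse means (limma adjusted p = 0.0398). In this fit, with a dye term and mouse as a random block, 132 features passed against 56 in the main test. Csf2 did not pass in it (limma adjusted p = 0.282). Stat3, which carries the signal of the receptor to the nucleus, had -0.042 ± 0.034, Cebpa -0.036 ± 0.043 and Jak1 -0.25 ± 0.21 (limma adjusted p = 0.440).

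The other proteins of the primary granule that were tested had small mean ratios. Of the 10 symbols in this list 5 had a probe, and Ctsg was among those without one. Of the 4 tested beside Elane, 0 passed in either direction and 3 were above 0, with a median of 0.022 and a range of -0.0035 to 0.094. Mpo encodes myeloperoxidase, the most abundant protein of these granules, and its 3 probes had means of 0.012, 0.0050 and 0.049. Averaged, Mpo had 0.022 ± 0.027 (SD, n = 3; limma adjusted p = 0.955). Prtn3 encodes proteinase 3, a close relative of elastase, and had -0.0040 ± 0.082 (limma adjusted p = 0.994), with arrays from -0.33 to 0.37. Elane was above Prtn3 on all 6 arrays, by 0.17 to 1.06, but Elane was chosen by its mean ratio, so this gap is only a description. Cd63, a membrane protein of these granules, had 0.094 ± 0.10 (limma adjusted p = 0.760).

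Of 9 proteins of secondary and tertiary granules tested beside Mmp8, 0 passed in either direction and 7 were above 0, with a median of 0.070. The highest was Hp, which encodes haptoglobin, a plasma protein of the hepatocyte that neutrophils also store. Hp had 0.54 ± 0.18 (SD, n = 3), from 0.31 to 0.85 on the 6 arrays (limma adjusted p = 0.0698). It passed in only 1 of 15 alternatives, the same fit of 6 arrays with a dye term and a random mouse block (limma adjusted p = 0.0267). Camp, the cathelicidin of secondary granules, had 0.14 ± 0.12 (limma adjusted p = 0.636), with its 2 probes at -0.0070 and 0.28. Ltf, which encodes lactoferrin, stood at 0.028 ± 0.12, Ngp at -0.0070 ± 0.18, Lcn2 at 0.097 ± 0.11 and Mmp9, the gelatinase of tertiary granules, at 0.080 ± 0.12. For 4 of the 5 genes Camp, Ltf, Ngp, Lcn2 and Mmp9 the SD over mice was larger than the size of the mean. Mmp8 was chosen by its mean ratio, so its place above these genes is no result, and Hp lay above it.

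Surface and cytosolic markers of neutrophils gave a median of 0.027 over 10 tested genes, of which 7 were above 0 and 0 passed in either direction. Of the 29 symbols in this list only 11 had a probe, and Ly6g, Cxcr2 and Retnlg were among those without one. The median thus covers only a part of the list. Wfdc21 had 0.37 ± 0.085 (limma adjusted p = 0.131), with arrays from -0.092 to 0.714 and 5 of 6 above 0. Itgam, an integrin chain shared with macrophages, had -0.37 ± 0.095 (limma adjusted p = 0.131). Its arrays ran from -1.187 to 0.315, with 1 of 6 above 0. The abundant calcium-binding proteins of the neutrophil cytosol, S100a8 and S100a9, stood at 0.069 ± 0.089 and -0.025 ± 0.13. Of 6 subunits and partners of the phagocyte oxidase 0 passed and 3 were above 0, with a median of -0.018, led by Cyba at 0.23 ± 0.13 (limma adjusted p = 0.390) and Rac2 at -0.18 ± 0.11 (limma adjusted p = 0.516). Centring each array on its median turns the medians of the primary granule, neutrophil marker, ligand and signalling lists below 0, at -0.0086, -0.0034, -0.022 and -0.016. Over all features centring gave a median of -0.0076 and 46.7% above 0, so a median below 0 is no result about these lists. With scaling added, the medians of the primary granule and ligand lists were above 0 again, at 0.016 and 0.050. Those of the neutrophil marker and signalling lists were -0.010 and -0.031, against -0.0078 over all features. In bulk tissue, fewer or more cells of a type and less or more RNA per cell cannot be told apart.

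**Figure D3:**
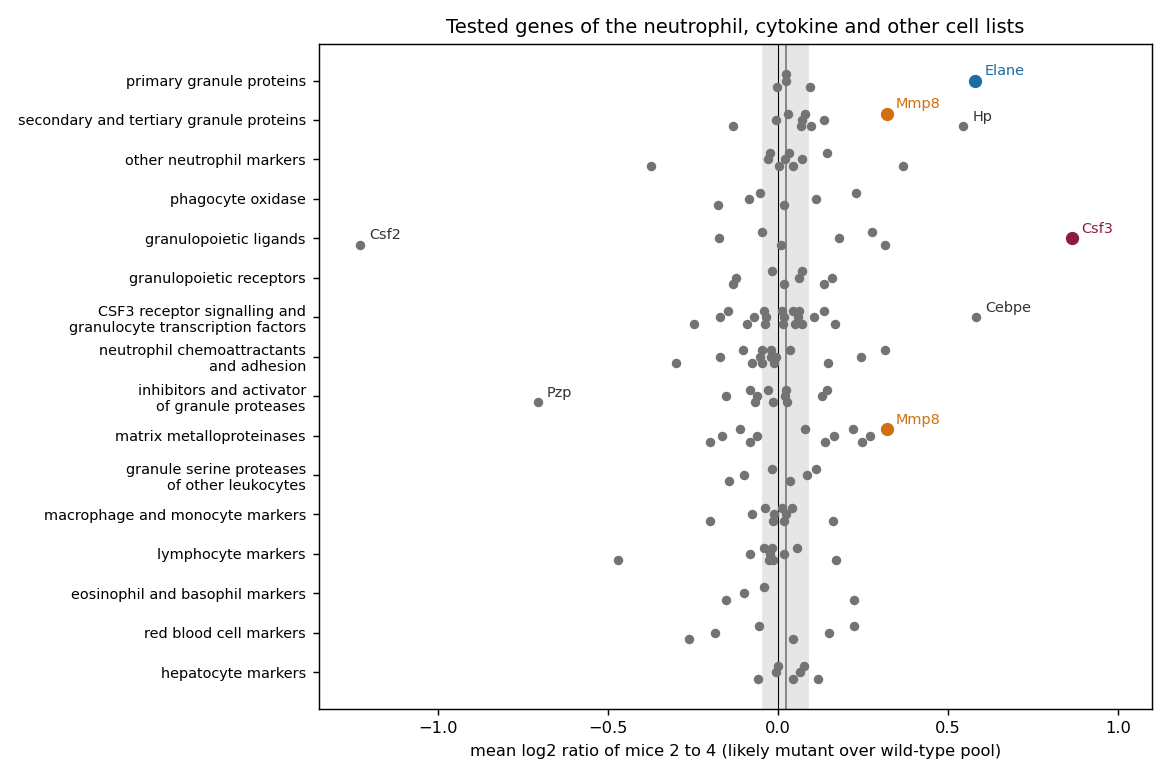
Mean log2 ratio over mice 2 to 4 of every tested gene in 16 lists (1 point per gene; vertical offsets only separate points), with the 25th to 75th percentile of all features shaded and their median as a grey line. Elane, Mmp8 and Csf3 are coloured. Most genes of the neutrophil lists lie near the shaded band, with Hp and Cebpe at 0.54 and 0.58 and Csf2 at -1.23.

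The family of Mmp8 and the proteins that restrain these proteases were compared in the same way. Of 11 other matrix metalloproteinases 0 passed in either direction and 6 were above 0, with a median of 0.080. Mmp23 had 0.25 ± 0.078 (limma adjusted p = 0.295) and Mmp3, a stromelysin, 0.22 ± 0.080 (limma adjusted p = 0.360), each with 5 of 6 arrays above 0. Of 12 protease inhibitors tested 0 passed and 5 were above 0, with a median of -0.023. Serpinb1a, an inhibitor of elastase inside neutrophils, had 0.026 ± 0.065, and the alpha-1 antitrypsin genes Serpina1b, Serpina1d and Serpina1e had -0.031 ± 0.069, -0.061 ± 0.079 and 0.019 ± 0.23. Timp1, an inhibitor of metalloproteinases, stood at -0.082 ± 0.19, and Mug1 at -0.15 ± 0.11 (limma adjusted p = 0.574). Pzp, a broad protease inhibitor of the alpha-2-macroglobulin family, had -0.71 ± 0.67 (limma adjusted p = 0.303). Its ratios in mice 2 and 4 ran from -1.23 to -0.93, mouse 3 had -0.14 and 0.23, and mouse 1 had -1.27.

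Genes of neutrophil chemoattraction and adhesion gave a median of -0.021 over 15 tested, of which 4 were above 0 and 0 passed in either direction. Hc, which encodes complement C5, the source of the chemoattractant C5a, had 0.31 ± 0.039 with all 6 arrays above 0 (limma adjusted p = 0.168). Cxcl12, which holds neutrophils in the marrow, had 0.24 ± 0.12 (limma adjusted p = 0.330), with its 3 probes at -0.040, 0.54 and 0.23. Cxcl1, a chemokine that recruits neutrophils, had -0.0050 ± 0.076, and Ppbp, another ligand of the same receptor, had -0.17 ± 0.078. Icam1, to which neutrophils adhere, stood at 0.035 ± 0.042.

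Markers of other cells were given the same count, beside 0.333% of all features that passed and 59.5% above 0. Of 10 macrophage and monocyte markers 5 were above 0, with a median of 0.00017, led by Cd5l at 0.16 ± 0.060 and Cd163 at -0.20 ± 0.40. The 10 lymphocyte markers had 3 above 0 and a median of -0.020, led by Cd5 at -0.47 ± 0.38 and Cd3g at 0.17 ± 0.084. Of 4 eosinophil and basophil markers 1 was above 0, with a median of -0.070, led by Prg3 at 0.22 ± 0.10 and Epx at -0.15 ± 0.14. The 6 granule proteases of other leukocytes had 3 above 0 and a median of 0.0080, with Tpsb2 at 0.11 ± 0.20 and Cpa3 at -0.14 ± 0.064. Red blood cell markers had 3 of 6 above 0 and a median of -0.0057, led by Klf1 at -0.26 ± 0.16 and Tspo2 at 0.22 ± 0.22. Hepatocyte markers had 5 of 7 above 0 and a median of 0.043, with Fgb at 0.12 ± 0.14 and Trf at 0.077 ± 0.10. In these 6 lists 0 genes passed the limma test in either direction (SDs are over 3 mice). Centring turns the medians of the macrophage and other granule protease lists below 0, at -0.030 and -0.022, and with scaling added they were -0.019 and -0.0067. Centring with scaling also turned that of the hepatocyte list, at 0.013 after centring alone, to -0.015. Over all features the median was -0.0076 after centring and -0.0078 with scaling added. The part of these cells in the ratios of Elane, Mmp8 and Csf3 was not tested.

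Elane, Mmp8 and Csf3 lie in 3 separate regions of the genome, and the genes beside them were looked up in gene order. Over all features 0.333% passed and 59.5% lay above 0. Of the 10 protein-coding genes on either side of Elane 14 were tested, 0 passed in either direction and 3 were above 0, with a median of -0.018. Prtn3 is the next gene to Elane, and the highest of the 14 was Cnn2 at 0.31 ± 0.18. Mmp8 lies in a row of metalloproteinase genes. Of its neighbours 10 were tested, 0 passed and 6 were above 0, with a median of 0.092. Among them Mmp3 and Mmp12 had 0.22 ± 0.080 and 0.16 ± 0.14, and Mmp13 and Mmp7 had -0.061 ± 0.12 and -0.20 ± 0.26. Beside Csf3 11 were tested, 0 passed and 5 were above 0, with a median of -0.0090. The gene next to Csf3, Med24, had -0.55 ± 0.53, and its orientations opposed each other, at 0.45 in Cy5 and -1.54 in Cy3, with 2.34 in mouse 1. The other 10 lay between -0.13 and 0.089.

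**Figure D4:**
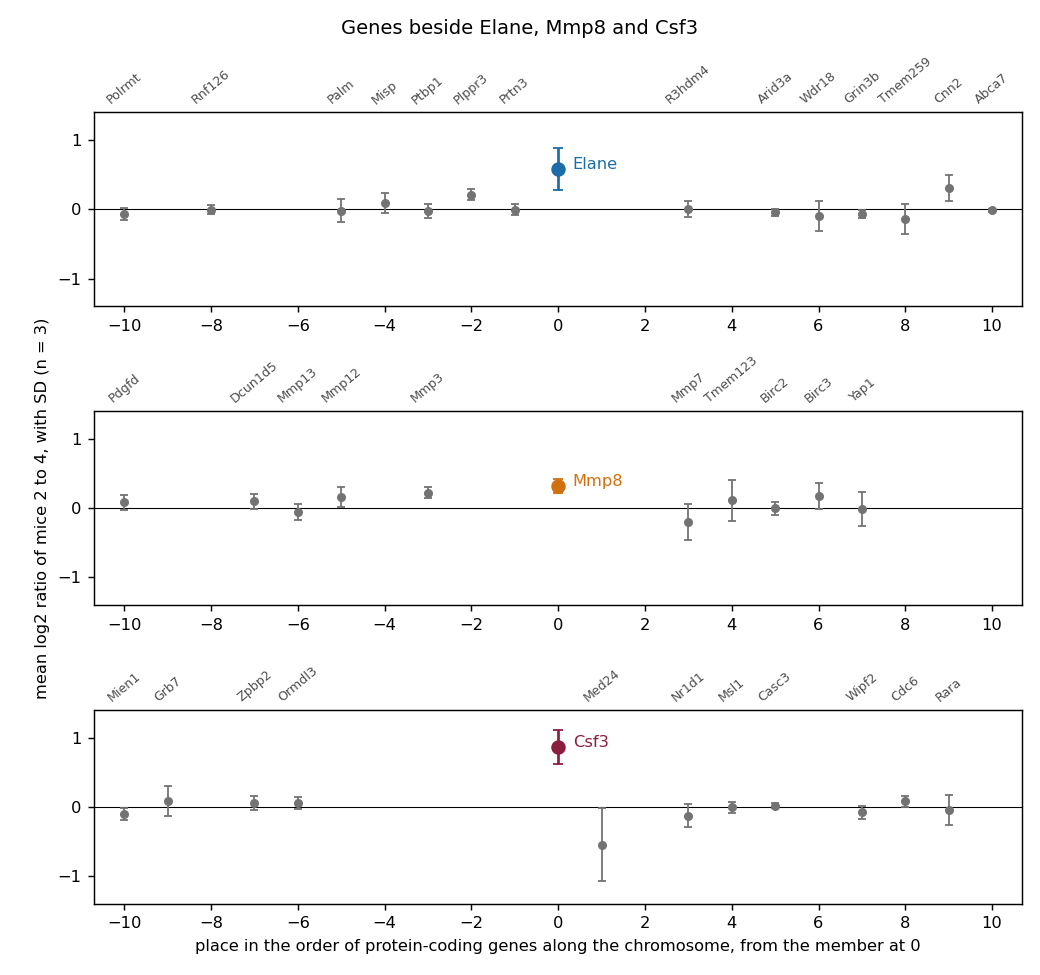
Mean log2 ratio of mice 2 to 4 (points; bars, SD over 3 mice) for the tested genes among the 10 protein-coding genes on either side of Elane, Mmp8 and Csf3, by their order along the chromosome. Prtn3, next to Elane, is at -0.0040, and Med24, next to Csf3, is at -0.55 with opposed orientations.

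The named genes whose 6 array values were closest to each gene were found by the root mean square difference over 8871 other genes measured on all 6 arrays. For Elane they were Hmces, which shields abasic sites in DNA, with a difference of 0.136, Cebpe with 0.181 and Sos1, an activator of Ras, with 0.199. Hmces followed Elane on the Cy3 array of mouse 3, where it stood at -0.11, and had 0.64 to 0.94 on the others. For Mmp8 they were Casq1 with 0.0837, Prkg2 with 0.117 and Cd86 with 0.120, all with their highest value on the Cy5 array of mouse 2. For Csf3 they were Mmd with 0.187, Dxo with 0.226 and Eml4 with 0.240. Csf3 came at rank 24 in likeness to Elane and Mmp8 at rank 64. From Mmp8, Elane came at rank 3723 and Csf3 at rank 8248 of the 8871, and from Csf3, Elane came at rank 16 and Mmp8 at rank 122. The differences were 0.331 between Elane and Csf3, 0.389 between Elane and Mmp8 and 0.620 between Csf3 and Mmp8. A rank depends on how many genes lie near the gene it starts from. The differences also follow the mean ratios that chose the genes. The 6 arrays come from 3 mice and share the pool and the dyes, so likeness is a description of these arrays.

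**Figure D5:**
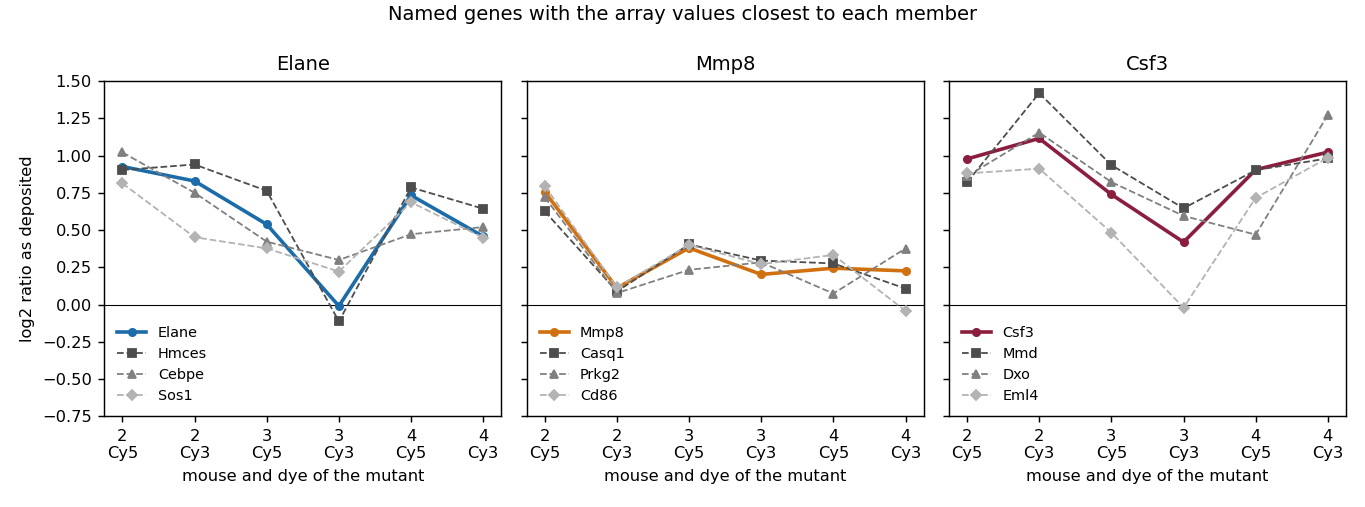
Log2 ratios on the 6 arrays of mice 2 to 4 for Elane, Mmp8 and Csf3 (coloured) and the 3 named genes with the smallest root mean square difference from each (grey); lines only join the values of a gene. Cebpe lies among the 3 genes closest to Elane, at 0.30 to 1.02.

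Abcb4 itself had 1 probe, with ratios from -1.20 to 0.072 on the 6 arrays and no common sign. The labels do not say whether the probe lies in the deleted part, so it checks no label.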

How the data were processed

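The deposited values are log2 ratios of the 2 channels of each array, from the series' value table. Their scale was inferred from the values. For scanner, background correction, normalization, centring and direction the method is not given by these sources. From mouse 1 to mouse 4, Cy5 before Cy3, the column medians were 0.023, -0.023, 0.054, -0.060, 0.069, 0.078, 0.081 and -0.031. Values above 15 in size, 19 to 83 per array, were dropped as placeholders. Mouse 1 was left out because its columns cancelled to within 0.012 on all 20577 probes. Between 20583 and 20738 probes per array were usable in mice 2 to 4, whose arrays correlated within a mouse at 0.100, -0.132 and 0.007 and between mice of the same orientation at 0.199 to 0.253. The number of arrays limits the precision.

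Probes were named through the platform annotation by Entrez identifier (all 12771 symbols equalled those of the GRCm38.p6 table, 0 probes had several and 8023 were unnamed here). Several probes of a gene were averaged within each array, an unnamed probe stood for itself, and both orientations were needed in 3 mice. Mouse means and differences between orientations were tested against 0 across all features by two-sided moderated tests (limma 3.58.1, R 4.3.3, eBayes after lmFit) with Benjamini-Hochberg adjustment at 0.05, and the fit was tested on simulated data. The mice are separate animals, but the pool is the only control, so p-values do not cover how wild-type mice vary. A result without an adjusted p below the threshold is given by its values.

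The genes and the 16 lists were chosen with earlier results of these data known. Of 272 list symbols 150 had a probe and 145 were tested. Named are the 3 genes, Abcb4, and per list each gene that passed and the 2 others with the lowest p, and, per gene, the 3 closest named genes over 6 arrays; further genes were named after their values were seen. Alternatives were each mouse left out, median centring, scaling, each orientation alone, single probes, turned columns, mouse 3 from its Cy5 array, a variance trend, an unmoderated test, the 6 arrays with a dye term and a random mouse block, and another rule on missing values.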

Additional observations from a re-analysis of the deposited data

Results flagged for a closer look

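Of 45 named genes screened over the 6 arrays of mice 2 to 4, 3 had an array far from the rest, in each case the Cy3 array of mouse 3. Chance marks about 1 in 20 such groups. Abcb4 had -1.20 there against -0.26 to 0.072 on the other arrays. Cd5l, a macrophage gene, had 0.32 against 0.086 to 0.17. Hmces, the gene closest to Elane in its array values, had -0.11 against 0.64 to 0.94. The SD of the log2 ratios on that array was 0.561, apart from the other 6 hybridisations. Elane and Csf3 also had their lowest values on it, without standing apart by this measure.

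In the hybridisation of mouse 1, which the means leave out, Csf3 stood at 1.19 and Elane at 0.49, each within the highest 5% of features on that array. Mmp8 stood at 0.41 there, outside that share, with 5.67% of features at or above it.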

How the results depend on the processing

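The mean ratios of the 3 genes kept their sign under all 15 alternatives but the one that turned all columns, which gave -0.579 for Elane, -0.320 for Mmp8 and -0.863 for Csf3 by construction. Apart from turned columns, Elane ran from 0.425 to 0.736, Mmp8 from 0.180 to 0.460 and Csf3 from 0.771 to 1.005. Turning all columns also gave -0.581 for Cebpe, -0.544 for Hp and 1.228 for Csf2. Turning only the columns with the mutant in Cy3 gave 0.058 for Cebpe, 0.080 for Hp and 0.660 for Csf2. These alternatives use the same ratios that chose the genes, so they describe the values and support no call.

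The count of 56 features changed more. Leaving out a mouse gave 0 to 24 (0 without mouse 4, where 1402 had an unadjusted p under 0.05, 1 without mouse 2 and 24 without mouse 3). Median centring gave 27 and scaling 27, the arrays with the mutant in Cy3 alone 18, single probes 123, turned Cy3 columns 26, mouse 3 from its Cy5 array 23, the variance trend 26, the unmoderated test 0 (1310 unadjusted), and the fit of 6 arrays in place of mouse means, with a dye term and a random mouse block, 132. The 26 features that differed between orientations became 0 to 398 when a mouse was left out (0 without mouse 3, where 1989 had an unadjusted p under 0.05), 3 after centring, 1 after scaling and 87 with single probes. The causes were not tested. No paired analysis was possible because no other group of samples shares replicate numbers with the mutants. The arrays of a mouse were joined only within that mouse. Signal over background, unknown here, limits what each probe can show.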

Other observations

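Some genes of the lists had mean ratios that differed between the dye orientations, picked out after their values were seen (SDs are over 3 arrays). Selp encodes P-selectin, the endothelial and platelet protein on which neutrophils roll. It had a mean of 0.96 ± 1.27 with the mutant in Cy5 and -1.57 ± 0.62 with it in Cy3, and 1.64 in mouse 1. Csf2rb, the shared receptor chain for interleukin 3, interleukin 5 and granulocyte-macrophage colony-stimulating factor, had 0.71 ± 0.25 and -0.44 ± 1.26. Its Cy3 values were -0.092, -1.83 and 0.61 in mice 2, 3 and 4, so the sign of that mean rests on mouse 3. Itgam had 0.024 ± 0.27 and -0.77 ± 0.44, so its Cy5 mean was near 0 and not opposite.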
